A study of Mus musculus with 13 samples.

Results

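The genes described here are 7 genes of bile duct cells and liver progenitors, out of 23019 genes in both count tables that hold the no BDL mice. Epcam and Prom1 encode surface proteins of biliary and progenitor cells, Sox9 and Elf3 encode transcription factors, Spp1 encodes the secreted protein osteopontin, and Cftr and Sctr encode a chloride channel and the secretin receptor. They were chosen by name, as cholangiocyte and progenitor genes, with their levels in these livers already known, so that their differences between the groups are given as a description and no test is read from them. Rows were identified by Entrez number, and all 7 were found.

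RNA was sequenced from the livers of 13 male C57 mice aged 3 months. The no BDL group (5 mice) had no bile duct ligation. The miR-Ctrl BDL group (4 mice) had bile duct ligation (BDL), the surgical closure of the common bile duct that causes cholestasis, and received a control oligonucleotide. The anti-miR-873-5p BDL group (4 mice) had the same surgery and received an oligonucleotide that blocks the microRNA miR-873-5p. Both oligonucleotides were injected into the tail vein at 60 µg on days 3 and 5 after surgery, and livers were taken on day 7. No sham surgery is described for the no BDL mice. Ligation, its surgery with anesthesia and analgesics, and injection therefore cannot be told apart in a comparison with no BDL. Whole liver was sequenced, so that more cells of a type and more RNA per cell cannot be told apart either.

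Cholangiocytes line the bile ducts, where they alter bile by secreting chloride, bicarbonate and water in answer to hormones such as secretin. When bile cannot drain, small ducts multiply at the portal tracts in the ductular reaction, and hepatocytes near them can take up biliary genes. Sox9 marks ducts and the cells in between, and Epcam and Prom1 are widely used to isolate them.

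The sequence of the blocked microRNA is shown because the treatment is directed at it. RefSeq places mmu-miR-873a-5p at chr4:36668556-36668576 on the minus strand of GRCm38.p6. The capitals mark its seed, bases 2 to 8.

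mmu-miR-873a-5p: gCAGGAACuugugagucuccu

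The complement of that seed in a transcript, written in DNA letters, is GTTCCTG. It was searched in the 3′ untranslated regions of the coding transcripts of GENCODE M21. Of 20937 genes with such a region, 3131 (15.0%) held at least 1 match. None of the 7 genes held one. Their longest 3′ untranslated regions ran from 254 bases for Sctr to 2250 bases for Sox9. This says only that these 7 letters are not in these windows.

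RefSeq windows from 250 bases before to 50 bases after the start of transcription were found for 5 of the 7 genes, Epcam, Prom1, Elf3, Spp1 and Cftr. Those of Elf3 and Spp1 are shown because these genes differed most between ligated and unligated livers, and that of Epcam because it is the surface marker used for the whole reaction. Both strands were searched for ACAAT (a core of SOX sites), GTTAAT (part of an HNF1 site), GGAATG (TEAD), AGGAAG (ETS factors, the family of Elf3), TGANTCA (AP-1), TATAAA and GGGCGG (GC box). Capitals mark the matches.

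Elf3, chr1:135258423-135258722, minus strand: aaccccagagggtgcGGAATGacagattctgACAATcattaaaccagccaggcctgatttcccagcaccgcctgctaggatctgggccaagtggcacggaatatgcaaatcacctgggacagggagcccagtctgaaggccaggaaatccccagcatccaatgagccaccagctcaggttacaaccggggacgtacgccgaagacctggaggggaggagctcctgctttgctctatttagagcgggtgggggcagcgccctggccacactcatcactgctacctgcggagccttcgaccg
Spp1, chr5:104434861-104435160, plus strand: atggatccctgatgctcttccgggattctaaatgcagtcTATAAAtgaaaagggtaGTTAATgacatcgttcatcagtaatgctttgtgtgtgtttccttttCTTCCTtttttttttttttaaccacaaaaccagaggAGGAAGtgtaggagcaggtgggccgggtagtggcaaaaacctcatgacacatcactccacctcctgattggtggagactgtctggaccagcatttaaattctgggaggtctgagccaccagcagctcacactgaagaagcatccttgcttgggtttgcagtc
Epcam, chr17:87635729-87636028, plus strand: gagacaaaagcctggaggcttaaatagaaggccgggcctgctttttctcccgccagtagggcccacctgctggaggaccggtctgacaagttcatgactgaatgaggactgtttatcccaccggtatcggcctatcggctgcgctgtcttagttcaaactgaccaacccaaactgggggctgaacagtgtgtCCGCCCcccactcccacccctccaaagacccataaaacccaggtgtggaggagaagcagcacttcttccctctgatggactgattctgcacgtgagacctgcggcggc

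The Elf3 window held 1 TEAD match, which begins at -235 bases from the transcription start, and 1 SOX match at -219 bases. The Spp1 window held 1 TATAAA, 1 HNF1 and 2 ETS matches, and the Epcam window held 1 GC box. Among all 32851 windows, 14.7% held a TEAD match, 31.0% a SOX match, 7.10% an HNF1 match, 35.4% an ETS match, 7.81% an AP-1 match, 13.6% TATAAA and 35.7% a GC box. The Cftr window, by contrast, held 6 GC boxes and was 71.3% G and C, where the median window was 52.7%. Motif matches therefore differed from gene to gene, and no motif was found in all 5 genes.

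Libraries held 12185333 to 19689037 counts, and 13072, 13130 and 13746 genes passed the filter on low counts in the 3 comparisons. A gene was called where edgeR's quasi-likelihood test gave an adjusted p (Benjamini-Hochberg) below 0.05. By that measure miR-Ctrl BDL livers had 19.1% of the tested genes higher than no BDL and 16.6% lower. For anti-miR-873-5p BDL livers the shares were 13.1% and 8.44%. These shares depend on scaling. With library size alone the median gene moved from -0.011 to 0.79 on the log2 scale in the first comparison and from -0.0070 to 0.82 in the second, and calls turned almost wholly upward, with 9360 higher and 275 lower, and 10063 higher and 131 lower. All changes below are relative to the scaling by trimmed means. Between the ligated groups 0 of 13746 genes (0%) were called by edgeR, with 863 (6.28%) at an unadjusted p under 0.05, and DESeq2 called 29.

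Levels per mouse are given as normalized counts, which are CPM scaled over all 13 libraries. Values set side by side for different genes are further divided by the length of the gene's exons in kilobases.

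**Figure D1:**
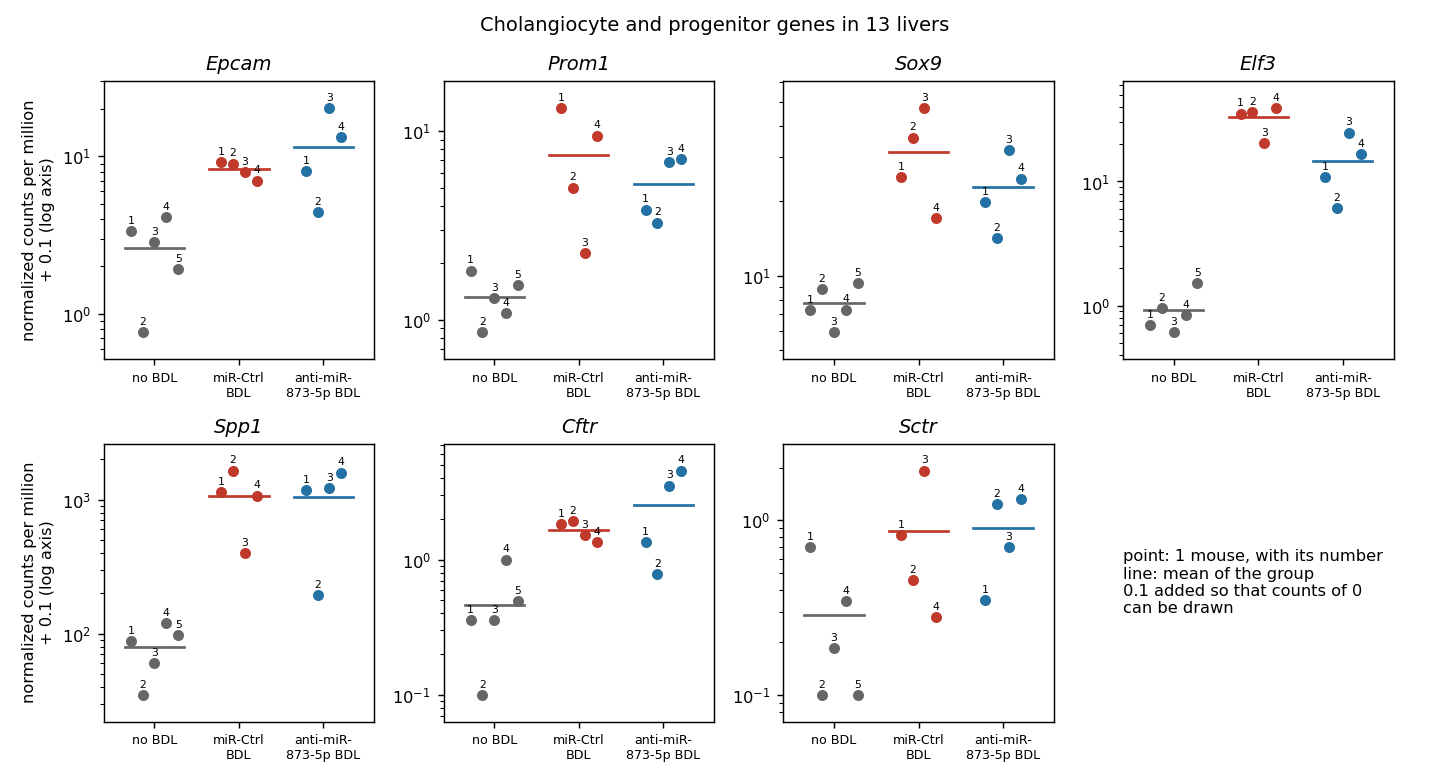
Normalized counts (CPM) of the 7 genes in each of 13 livers (log axis, 0.1 added so that counts of 0 can be drawn; points are mice, numbered within their group, and lines are group means). For Epcam, Prom1, Sox9, Elf3 and Spp1 every ligated mouse lies above every no BDL mouse.

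Every ligated liver had more Epcam, Prom1, Sox9, Elf3 and Spp1 than every unligated liver, and Cftr was higher than in no BDL in all 4 miR-Ctrl BDL mice. The increase was largest for Elf3, an epithelial ETS factor, at 39.7-fold under the control oligonucleotide and 17.7-fold under anti-miR-873-5p. It was smallest for Epcam with the first (3.32-fold) and for Sox9 with the second (3.02-fold). Of the 7 genes, 6 passed the filter in each comparison with no BDL, and all 6 were called higher there, beside 19.1% and 13.1% of all genes. Cftr and Elf3 passed the filter only through the ligated groups, so they could not have been called lower. For that reason, and since the genes were chosen with these results known, nothing is read from those counts.

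Epcam encodes an adhesion protein of epithelial cells that normal hepatocytes lack. It was at 3.27, 0.665, 2.74, 4.01 and 1.82 normalized counts in the 5 no BDL mice, at 9.10, 8.89, 7.88 and 6.92 in miR-Ctrl BDL and at 7.96, 4.31, 20.2 and 13.2 in anti-miR-873-5p BDL. The groups with ligation did not overlap with no BDL, but the lowest ligated mouse (4.31) was close to the highest unligated one (4.01). The log2 difference from no BDL was 1.73 (SE 0.37) in miR-Ctrl BDL and 2.22 (SE 0.51) in anti-miR-873-5p BDL.

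Prom1 encodes CD133, a membrane protein of progenitor cells. It was at 1.72, 0.759, 1.20, 0.982 and 1.42 in no BDL, at 13.2, 4.92, 2.16 and 9.37 in miR-Ctrl BDL and at 3.73, 3.17, 6.72 and 6.99 in anti-miR-873-5p BDL. It spread most widely among the miR-Ctrl BDL mice, from 2.16 to 13.2. The log2 difference from no BDL was 2.63 (SE 0.48) and 2.11 (SE 0.32) in the same order. Some of its exon length lies opposite an annotated antisense gene, and the library kit does not mark strand.

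Sox9, a transcription factor that marks the biliary lineage, already had some signal without ligation. It was at 7.14, 8.73, 5.82, 7.20 and 9.26 in no BDL, at 24.9, 35.8, 47.3 and 16.9 in miR-Ctrl BDL and at 19.7, 14.05, 31.9 and 24.5 in anti-miR-873-5p BDL. No ligated mouse fell to the no BDL range, and the group means were 7.63 ± 1.38 (SD, n = 5), 31.2 ± 13.2 (SD, n = 4) and 22.5 ± 7.57 (SD, n = 4). The log2 difference was 2.05 (SE 0.27) and 1.59 (SE 0.24).

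Elf3 was low without ligation, with 6 to 18 counts per library. Its normalized counts were 0.602, 0.854, 0.513, 0.736 and 1.42 in no BDL, 35.1, 36.1, 20.4 and 39.0 in miR-Ctrl BDL, and 10.7, 6.04, 24.7 and 16.5 in anti-miR-873-5p BDL. The 3 miR-Ctrl BDL mice other than mouse 3 formed a narrow band, above all anti-miR-873-5p BDL mice. The log2 difference from no BDL was 5.31 (SE 0.30) and 4.15 (SE 0.45), and Elf3 ranked 39th of 13072 and 45th of 13130 genes by it. Elf3 shares exon positions with an antisense gene, so reads of that gene would be counted alike.

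Spp1 encodes osteopontin, a secreted matrix protein that biliary cells and macrophages both make. It was the most abundant of the 7 per kilobase in each group, at 48.5 normalized counts per kilobase in no BDL, 646 in miR-Ctrl BDL and 637 in anti-miR-873-5p BDL. By mouse its normalized counts were 87.8, 34.7, 59.6, 119 and 97.9 in no BDL, 1135, 1649, 401 and 1071 in miR-Ctrl BDL, and 1182, 194, 1228 and 1593 in anti-miR-873-5p BDL. One mouse of each ligated group, miR-Ctrl BDL mouse 3 and anti-miR-873-5p BDL mouse 2, lay well under the other 3. The log2 difference was 3.77 (SE 0.46) and 3.75 (SE 0.57). The annotated gene Gm42793 on the same strand shares 11.6% of its 50-base windows, and reads from the 2 cannot be told apart there.

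Cftr encodes the chloride channel that drives bile fluid secretion, and it was rare throughout. It shares exon positions with the antisense gene Gm15592, whose reads could not be told apart from its own. It had 0 to 11 counts per library in no BDL, 17 to 31 in miR-Ctrl BDL and 9 to 91 in anti-miR-873-5p BDL. In normalized counts it was at 0.258, 0, 0.257, 0.900 and 0.396 in no BDL, at 1.74, 1.84, 1.41 and 1.25 in miR-Ctrl BDL and at 1.24, 0.680, 3.42 and 4.45 in anti-miR-873-5p BDL. Mouse 2 of the last group fell inside the no BDL range. The log2 difference was 2.08 (SE 0.53) and 2.75 (SE 0.72). In the second comparison its call was lost without anti-miR-873-5p BDL mouse 3 or 4, or without no BDL mouse 1 or 3, and the call of Epcam was lost without anti-miR-873-5p BDL mouse 3.

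Sctr, the receptor through which secretin starts ductal secretion, had at most 25 counts in any library and did not pass the filter in the comparisons with no BDL. Its normalized counts were 0.602, 0, 0.0856, 0.245 and 0 in no BDL, 0.718, 0.355, 1.82 and 0.179 in miR-Ctrl BDL and 0.249, 1.13, 0.600 and 1.22 in anti-miR-873-5p BDL. The groups overlapped. With the filter lifted to all genes with at least 1 count, the log2 difference from no BDL was 1.95 (SE 0.90) in miR-Ctrl BDL and 2.06 (SE 0.79) in anti-miR-873-5p BDL, and neither was called.

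**Figure D2:**
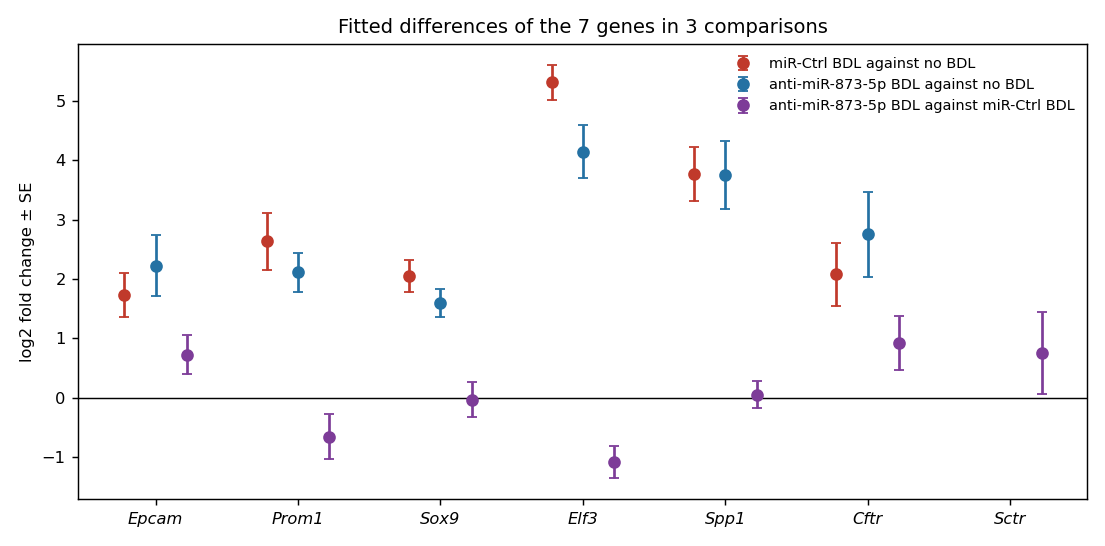
Fitted log2 fold change of each gene with its standard error in the comparisons of miR-Ctrl BDL (red) and anti-miR-873-5p BDL (blue) with no BDL and of the ligated groups with each other (purple). Sctr has only the purple point, since it did not pass the filter in the other comparisons.

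Order by level per kilobase was similar in the groups but for Elf3. In no BDL it ran Spp1, Sox9, Epcam, Elf3, Prom1, Sctr, Cftr, and neighbours from Sox9 down overlapped in range. In both ligated groups Elf3 moved to the second place behind Spp1, at 14.7 normalized counts per kilobase in miR-Ctrl BDL and 6.53 in anti-miR-873-5p BDL. There it overlapped in range with Sox9 (7.55 and 5.45). Spp1 lay above every other gene in every group, without overlap.

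The next comparison asks whether blocking miR-873-5p altered these genes in ligated livers. It rests on a table with mice 1, 2 and 4 of miR-Ctrl BDL and mice 1, 3 and 4 of anti-miR-873-5p BDL, the study's supplement stating that outliers were set aside after clustering. No gene of the 7 was called, and 1 of the 7 had an unadjusted p under 0.05, beside 6.28% of all genes tested. For Elf3 the log2 difference was -1.09 (SE 0.27), the lower side being the blocked group. Its 3 mice in the table, at 10.7, 24.7 and 16.5, were under the 3 control mice at 35.1, 36.1 and 39.0. Of all genes, 4.77% had 3 mice under the other 3 in this direction and 6.59% had them above. With all 4 mice of each group the Elf3 ranges overlapped, since miR-Ctrl BDL mouse 3 was at 20.4 and anti-miR-873-5p BDL mouse 3 at 24.7.

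The other 6 genes did not move one way. Epcam, Cftr and Sctr had positive log2 differences of 0.73 (SE 0.32), 0.92 (SE 0.45) and 0.75 (SE 0.69). Prom1 had -0.66 (SE 0.39). Sox9 and Spp1 were near 0, at -0.035 (SE 0.29) and 0.049 (SE 0.23). In all 6 the groups overlapped. Several of these differences moved when 1 mouse was left out. Without anti-miR-873-5p BDL mouse 3 that of Epcam was 0.34, and without mouse 4 of that group those of Cftr and Sctr were 0.53 and 0.024. Without miR-Ctrl BDL mouse 1 that of Sctr was 1.38 and that of Prom1 was -0.29. Sox9 ran from -0.27 without miR-Ctrl BDL mouse 4 to 0.27 without mouse 2 of that group, and it was at -0.47 with all 13 mice in 1 fit.

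**Figure D3:**
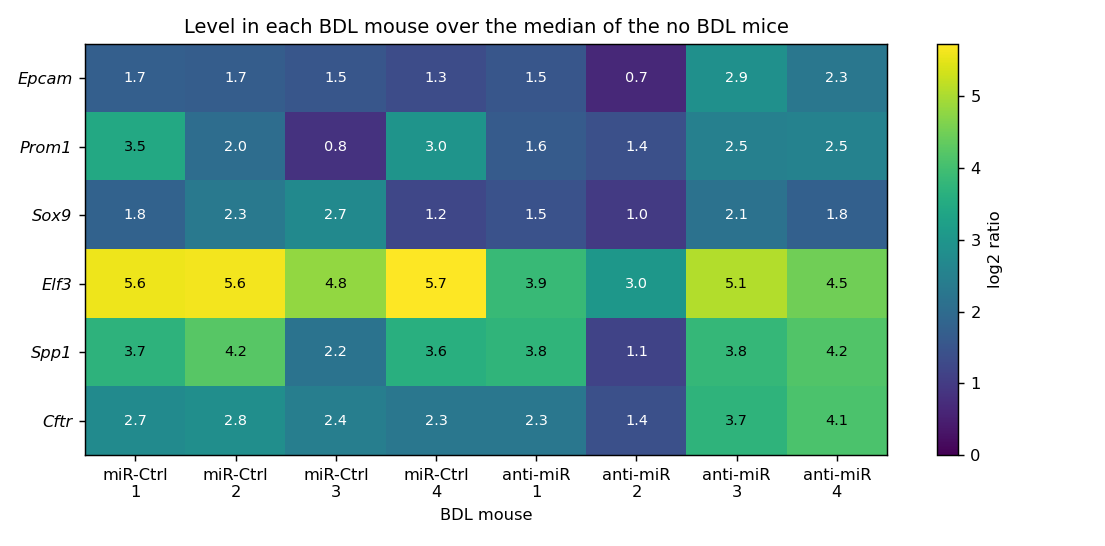
Log2 ratio of each ligated mouse to the median of the 5 no BDL mice for 6 genes (rows) in 8 mice (columns); Sctr is left out because its no BDL median is near 1 read. The column of anti-miR-873-5p BDL mouse 2 is the lowest in all rows except Prom1, where miR-Ctrl BDL mouse 3 is lowest.

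Anti-miR-873-5p BDL mouse 2, which is not in the table of the ligated groups, was the lowest of the 8 ligated mice for Epcam, Sox9, Elf3, Spp1 and Cftr. Anti-miR-873-5p BDL mouse 3 or 4 was the highest for Epcam and Cftr, and a control mouse for Prom1, Sox9, Elf3, Spp1 and Sctr. MiR-Ctrl BDL mouse 3 was the highest for Sox9 and Sctr, yet the lowest for Prom1 and the second lowest for Spp1.

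Across the 8 ligated mice, Epcam and Cftr had the closest pair of profiles, with a Pearson r of 0.92 and a Spearman rho of 0.88 on log2 levels. Sox9 and Prom1 had r = -0.24. Sctr had r = 0.047 with the mean standardized level of the 7 genes. The 8 points are mice of 2 oligonucleotide groups that share a library kit and differ in depth, and these values are a description. Among 12906 genes, those with profiles most like that mean were Pdgfc (r = 0.975), Brd8 (0.970), Plekhh1 (0.967), Gas6 (0.967) and Plet1 (0.965).

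Other genes of the biliary programme were followed in a list of 47 genes grouped by role, set with earlier results of these data known. The adjusted p-values of list genes are therefore a description and not independent support. Against no BDL, 19 of the 39 tested were called higher with the control oligonucleotide and 2 were called lower. With anti-miR-873-5p, 21 of 37 were called higher and 1 lower. Over all genes tested, the shares were 19.1% higher and 16.6% lower in the first comparison and 13.1% and 8.44% in the second. The median log2 difference of those tested was 0.79 and 1.14, where the median over all genes was near 0. Some list genes, such as Ncam1, were near the floor in no BDL and passed the filter only through the ligated groups. They could not have been called lower, so these totals and medians are no test of direction. All 3 keratins and 8 of the surface genes tested were called higher in each comparison, and transport and cilium genes were called in the higher direction or not at all. Calls in both directions occurred among the transcription factors in both comparisons and, in miR-Ctrl BDL, among the ductular reaction and progenitor genes.

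**Figure D4:**
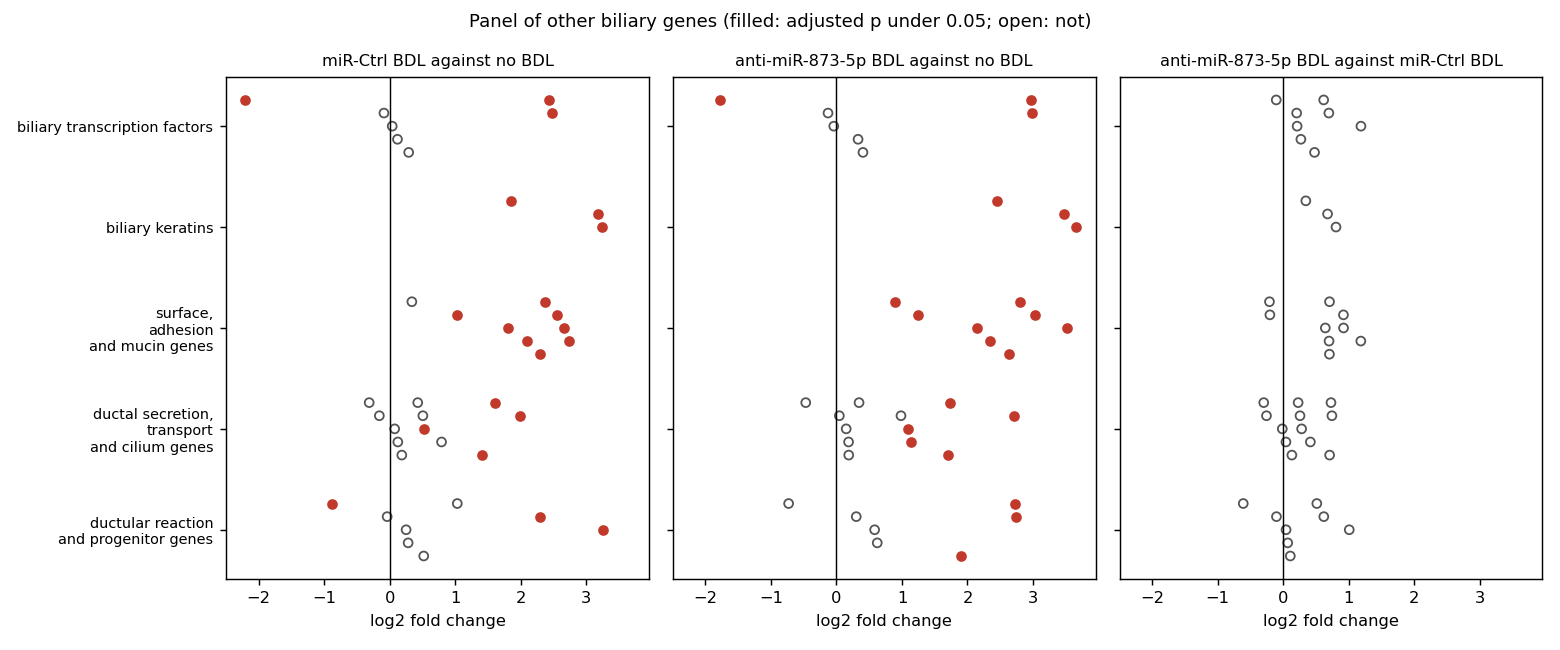
Log2 fold change of each tested gene of the list (points) by role group (rows) in the 3 comparisons (panels); filled points were called by edgeR (adjusted p under 0.05). Keratins and surface genes sit right of 0 in both comparisons with no BDL, and no point is filled between the ligated groups.

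Keratins 7 and 19, the intermediate filaments of duct cells, rose most among the keratins. Krt7 had a log2 difference of 3.24 (SE 0.28, adjusted p = 0.000102) in miR-Ctrl BDL and 3.66 (SE 0.43, adjusted p = 0.00114) with anti-miR-873-5p. Krt19 rose by 3.19 (SE 0.30, adjusted p = 0.000130) and 3.48 (SE 0.38, adjusted p = 0.000859). Its normalized counts were 0.475 to 1.81 in no BDL, 8.74 to 11.998 in miR-Ctrl BDL and 7.15 to 18.8 in anti-miR-873-5p BDL, without overlap. Krt23 rose by 1.85 (SE 0.40, adjusted p = 0.00579) and 2.45 (SE 0.44, adjusted p = 0.00575).

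Of the surface, adhesion and mucin genes, 8 of 9 tested rose in miR-Ctrl BDL and 8 of 8 in anti-miR-873-5p BDL. Over all genes, 19.1% and 13.1% were higher. In no BDL, Ncam1 had 2 to 6 counts per library and Itgb6, tested in the first comparison only, had 0 to 4. Both passed the filter only through the ligated groups and could not have been called lower, so the 2 counts are no test of direction. Tspan8, a tetraspanin, rose by 2.73 (SE 0.29, adjusted p = 0.000214) and 3.52 (SE 0.48, adjusted p = 0.00196). Cd24a, a surface glycoprotein of progenitor cells, rose by 2.67 (SE 0.40, adjusted p = 0.00104) and 3.03 (SE 0.39, adjusted p = 0.00161). Cd44, a hyaluronan receptor of many cell types, rose by 2.55 (SE 0.43, adjusted p = 0.00187) and 2.15 (SE 0.54, adjusted p = 0.0212). The mucin Muc1 rose by 2.38 (SE 0.34, adjusted p = 0.000845) and 2.80 (SE 0.60, adjusted p = 0.0119). In the second comparison the 8 became 5 without anti-miR-873-5p BDL mouse 3 or mouse 4, where Cd44, Cdh1 and Anxa13 lost their calls. The calls of Cd44 and Cdh1 there held in 3 and 2 of the 9 fits that each left out a mouse, with adjusted p up to 0.0670 and 0.123. In miR-Ctrl BDL the call of Cdh1 held in 4 of 9 fits, being lost without miR-Ctrl BDL mouse 1, 2 or 4 or no BDL mouse 1 or 3 (adjusted p up to 0.0665).

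Among 7 transcription factors tested, Sox4 and Ehf rose and Onecut1 fell in both comparisons, and the other 4 did not pass. These 2 higher and 1 lower stand beside 19.1% and 16.6% of all genes in the first comparison and 13.1% and 8.44% in the second. With so few genes, nothing is read from the counts. Without miR-Ctrl BDL mouse 3 there were 2 lower in place of 1. Ehf, an ETS factor like Elf3, rose by 2.44 (SE 0.33, adjusted p = 0.000617) in miR-Ctrl BDL and 2.97 (SE 0.44, adjusted p = 0.00278) with anti-miR-873-5p. Its values were 4.74 to 5.31 normalized counts in the 4 miR-Ctrl BDL mice. Sox4 rose by 2.48 (SE 0.56, adjusted p = 0.00714) and 2.99 (SE 0.45, adjusted p = 0.00298). Onecut1, a factor of both hepatocytes and early ducts, had a log2 difference of -2.21 (SE 0.44, adjusted p = 0.00400) and -1.78 (SE 0.48, adjusted p = 0.0276). The second call of Onecut1 was lost without anti-miR-873-5p BDL mouse 1 or 3 or no BDL mouse 4, with adjusted p up to 0.0563.

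Secretion, transport and cilium genes gave 4 of 12 higher in miR-Ctrl BDL and 5 of 12 in anti-miR-873-5p BDL, with none lower. Over all genes, 19.1% and 13.1% were higher. In anti-miR-873-5p BDL the 5 became 2, near the share of all genes, without anti-miR-873-5p BDL mouse 3 or 4 or no BDL mouse 3 or 4. The 5 became 3 without no BDL mouse 1, 2 or 5. Ano1, a chloride channel, and Sstr2, a somatostatin receptor, held their calls there in 3 and 2 of the 9 fits that each left out a mouse. The deposited counts of Sstr2 in the no BDL mice differ between the 2 comparisons. In miR-Ctrl BDL the call of Pkhd1, the gene of a cilium protein, held in 4 of 9 fits, being lost without miR-Ctrl BDL mouse 1, 2 or 4 or no BDL mouse 1 or 3 (adjusted p up to 0.0622). Bicc1, an RNA-binding protein linked to cystic ducts, rose by 1.99 (SE 0.45, adjusted p = 0.00723) and 2.72 (SE 0.49, adjusted p = 0.00571). Itpr3, the calcium channel of the duct cell, rose by 1.61 (SE 0.33, adjusted p = 0.00508) and 1.73 (SE 0.31, adjusted p = 0.00547). Slc5a1, a sodium and glucose carrier, rose by 1.41 (SE 0.36, adjusted p = 0.0138) and 1.71 (SE 0.50, adjusted p = 0.0358). The second call of Slc5a1 held in 3 of the 9 fits that each left out a mouse and was lost without anti-miR-873-5p BDL mouse 3 or 4 or no BDL mouse 2, 3, 4 or 5, with adjusted p up to 0.117. Genes of this group called in neither comparison included Aqp1 (log2 difference -0.31 and -0.47) and Slc4a2 (0.076 and 0.18). Car2 (0.12 and 0.19) and Slc10a2 (0.43 and 0.15) were not called either.

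In the ductular reaction and progenitor group, miR-Ctrl BDL gave 2 of 8 tested higher and 1 lower, near the 19.1% and 16.6% of all genes, and anti-miR-873-5p BDL gave 3 of 7 higher, where 13.1% of all genes were. The 3 became 1 without anti-miR-873-5p BDL mouse 3 or 4 or no BDL mouse 3. Tnfrsf12a, the receptor for the growth signal TWEAK, rose by 3.25 (SE 0.31, adjusted p = 0.000130) and 2.72 (SE 0.36, adjusted p = 0.00180). Ankrd1, a target of YAP, rose by 2.29 (SE 0.53, adjusted p = 0.00843) and 2.74 (SE 0.68, adjusted p = 0.0202). Ctgf, also a YAP target, rose by 1.91 (SE 0.55, adjusted p = 0.0357) with anti-miR-873-5p. In miR-Ctrl BDL Ctgf was not called, at 1.03 (SE 0.46). Cyr61, a further YAP target of the group, was called in neither comparison, at 0.25 (SE 0.55) and 0.30 (SE 0.54). Yap1 itself was not called either, at 0.039 (SE 0.12) and -0.13 (SE 0.10). Lgr5 fell by 0.88 (SE 0.30, adjusted p = 0.0448) in miR-Ctrl BDL, and it stayed called in 2 of the 9 fits that each left out a mouse, those without no BDL mouse 1 or 3, with adjusted p up to 0.103 in the others. Without anti-miR-873-5p BDL mouse 3 or 4 or no BDL mouse 3 the second call of Ankrd1 was lost (adjusted p up to 0.0669). Ctgf stayed called in 2 of 9 fits, those without anti-miR-873-5p BDL mouse 1 or no BDL mouse 1, with adjusted p up to 0.112.

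Between the ligated groups 0 of 40 tested genes of the list were called by edgeR, and 5 had an unadjusted p under 0.05, where 6.28% of all genes had one. DESeq2 called 0 as well. The smallest p in each role group belonged to Onecut2 (log2 difference 0.27, SE 0.12, adjusted p = 0.781), Krt23 (0.68, SE 0.23, adjusted p = 0.757), Anxa13 (0.92, SE 0.30, adjusted p = 0.757), Pkhd1 (0.71, SE 0.21, adjusted p = 0.757) and Tnfrsf12a (-0.61, SE 0.24, adjusted p = 0.775). The median over the 40 genes was 0.38 beside 0.0057 over all genes. The count of 5 depended on the mice kept. With all 4 mice of each ligated group, 1 of 39 list genes had an unadjusted p under 0.05, beside 502 of 12906 genes. Without anti-miR-873-5p BDL mouse 1, 20 of 40 list genes had one, beside 1380 of 13948 genes.

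Some genes of other cell types differed with ligation too. Over all genes tested, 19.1% were higher and 16.6% lower in the first comparison, and 13.1% and 8.44% in the second. With so few genes per list, counts of 0 or 1 called cannot be told apart from these shares. Mesothelial markers summed to 0 to 0.327 normalized counts in no BDL, 13.8 to 56.6 in miR-Ctrl BDL and 11.8 to 46.1 in anti-miR-873-5p BDL, and all 5 were called higher in both comparisons. In no BDL 2 to 5 of the 5 were at 0 counts in each mouse. Msln, Upk3b, Upk1b and Lrrn4 had 1 count each over all no BDL mice. They passed the filter only through the ligated groups, so they could not have been called lower. Nothing is read from the 5 calls. Krt7 and Krt19 are also made by mesothelial cells. Proliferation markers summed to 3.52 to 7.99, 15.8 to 101 and 7.18 to 52.1, with 5 of 5 and 4 of 4 tested called higher. In no BDL, Ccnb1, tested in the first comparison only, had 0 to 5 counts per library, and Top2a had 5 to 17. Both passed the filter only through the ligated groups and could not have been called lower, so these counts are no test of direction. Macrophages also make Spp1, and their markers summed to 119 to 658, 523 to 1428 and 376 to 1328, with 5 of 6 and 1 of 6 called higher. Mesenchymal markers gave 3 of 6 and 4 of 6 higher. Hepatocyte markers were abundant in all livers, with 7 of them summing to 123012 to 129422 in no BDL, 46346 to 76580 in miR-Ctrl BDL and 40499 to 89529 in anti-miR-873-5p BDL, so that the ligated groups lay under no BDL without overlap. Most of that sum was Alb, with a mean of 82866 in no BDL beside a mean sum of 125254. Of 8 tested, miR-Ctrl BDL had 5 lower and anti-miR-873-5p BDL had 3 lower. Alb, Hnf4a and Tat were called in neither comparison, and Tat had positive log2 differences of 0.48 and 0.72. Endothelial markers gave 0 of 5 in the first comparison and 1 of 5 lower in the second, and of the 2 pancreatic genes that could be tested 1 was lower in both comparisons. T and B cell markers were hardly measurable, with 0 and 1 of 4 tested, the latter lower. The part of these cells in the results above was not tested. Of the cholangiocyte markers 6 of 7 tested were higher in each comparison, but that list shares genes with the 7 described here.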

How the data were processed

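RNA from whole livers of 13 mice was made into TruSeq RNA v2 libraries, which do not mark strand, and read as 50-nucleotide single reads. Per the labels and the study's methods, the authors used CASAVA 1.8.2, FastQC and Trim Galore, aligned to mm10 with TopHat and tested with DESeq2. The counting program is not given in the sources used here. The deposited values are raw counts per Entrez gene in 3 tables, 1 per comparison, and the table of the ligated groups holds 3 mice of each. Of the 23019 genes in both tables with no BDL mice, 22353 had the same counts of those mice in both. Levels per mouse were computed from these genes, which leaves out Sstr2 and Cps1.

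Each table was tested with edgeR 4.0.16 in R 4.3.3 (filterByExpr, trimmed means, quasi-likelihood test, Benjamini-Hochberg adjusted p under 0.05), checked on simulated data. DESeq2 1.42.0 was an alternative, along with other scalings, filters, a replicate block and leaving out each mouse. The SE was obtained from the F statistic and the fold change. The members, the gene list and the marker lists were chosen with earlier results of these data known. Named from the list were up to 3 called genes per role group and direction with the largest change, or else the gene with the smallest p. The p-values measure the spread between these mice only. Coordinates are those of GENCODE M21 and RefSeq (GRCm38).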

Additional observations from a re-analysis of the deposited data

How the results depend on the processing

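The 6 members tested were called higher than no BDL in both comparisons under each alternative scaling, filter and test tried, except that with a replicate block 5 were called in miR-Ctrl BDL, Cftr being lost. As above, nothing is read from the direction of these calls. With 1 mouse left out, 6 to 6 stayed called with the control oligonucleotide and 4 to 6 with anti-miR-873-5p. The number of list genes called was 21 in miR-Ctrl BDL and 22 in anti-miR-873-5p BDL. It went to 35 and 34 with library size alone, which moves the median of all genes, and to 14 in anti-miR-873-5p BDL with the replicate block. With 1 mouse left out it ran from 18 to 22 and from 13 to 25, and the low values in the second comparison, 13 and 14, came without anti-miR-873-5p BDL mouse 3 and mouse 4. Of the list genes called, 18 of 21 and 13 of 22 were called in every such fit. Between the ligated groups 0 members and 0 list genes were called under any alternative, 0 to 0 with 1 mouse left out. An alternative chosen after seeing the data kept only the mice of the table of the ligated groups and called 6 members in each comparison, with 22 and 25 list genes. Correlations of same-numbered mice ran from -0.305 to 0.380, and those of differently numbered mice from -0.517 to 0.422. With so few same-numbered pairs, these values cannot settle whether mouse numbers pair the samples. The fits with a replicate block are given for completeness. Sctr and Cftr are limited by depth, with few counts per library.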
